A study of Mus musculus with 12 samples.

Results

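Transcript levels of 9 genes that carry and start the T cell receptor (TCR) signal were followed across 12 RNA-seq libraries of mouse regulatory T cells (Tregs). The genes were taken by symbol from a fixed list of the co-receptor Cd4, the CD3 chains Cd3d, Cd3e, Cd3g and Cd247, the kinases Lck and Zap70, and the adaptors Lat and Lcp2. All 9 were found among the 23361 genes of the deposited table, and all 9 passed the filter on low values that 10868 genes passed. Tregs are the CD4 T cells that restrain immune responses under the lineage factor Foxp3. The cells came from an autoimmune diabetes model and were either wild type (Wt) or deficient in Lag3, a surface receptor related to CD4 that inhibits T cell responses. They were taken from the pancreatic islets, the target tissue of the disease, or from lymph nodes that do not drain the pancreas (NDL). The 4 groups, Wt islet, Lag3 islet, Wt NDL and Lag3 NDL, each held 3 libraries, and every group came from the same disease model. The strain, age and sex of the animals, the form of the Lag3 allele and the way the cells were sorted are not stated in the labels. Whether the 3 libraries of a group represent different animals is not recorded, so a p-value here speaks of the scatter among libraries, and that scatter may be technical.

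The TCR itself has no enzyme activity. Its peptide-binding chains are held at the surface by the CD3 chains, whose cytoplasmic tails carry tyrosine motifs. Cd4 binds MHC class II and brings the kinase Lck to the receptor. Lck phosphorylates the tails, Zap70 docks on them and is activated in turn, and Zap70 phosphorylates the adaptors Lat and Lcp2, the gene of SLP-76. These adaptors assemble the complex that leads to calcium and MAP kinase signals. Tregs need TCR signals for their suppressive function.

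The libraries are called 1a, 2 and 1b, because the columns of the deposited table number them 1, 2 and 1 again. Deposited values were whole numbers already rescaled to near equal totals, from 15232498 to 15370098 a library, so the depth is unknown for most libraries and levels are given as CPM, the deposited value scaled to a common library total. The rescaled counts of Lag3 itself were 40, 48 and 120 in Wt islets against 1, 0 and 0 in Lag3 islets, and 2, 5 and 6 against 1, 0 and 3 in NDL. Foxp3 was present in all 12 libraries, at 265 to 799 CPM. The co-receptor genes of CD8 T cells reached at most 19.4 CPM (Cd8a) and 8.62 CPM (Cd8b1). Library 2 of Lag3 islets stood apart. Its values skip whole numbers as counts multiplied by 2.79 would, a step also seen at 1.58 in library 2 of Wt NDL and at 1.11 in library 1b of Lag3 NDL. In it 927 of the tested genes were at 0 against 399 to 789 in the other libraries, and the pan-leukocyte gene Ptprc measured 983 CPM against 1793 to 2664 elsewhere. Columns 1b carried more ribosomal precursor Rn45s, at 1.26% to 1.68% of the total against 0.149% to 0.571%. RNA of other cells also moved with tissue. Summed B cell markers measured 284 to 1233 CPM in islet libraries and 60.1 to 300.2 CPM in NDL libraries, and summed exocrine pancreas markers 40.4 to 2702 CPM against at most 5.22 CPM. Their part in the levels given here was not tested. In such bulk libraries fewer cells of a type and less RNA per cell cannot be told apart.

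The 9 genes were high in all groups, and no tissue or genotype difference passed the test for any of them. Among 10868 tested genes their average levels lay between percentile 80.9 (Cd3e) and percentile 99.3 (Cd3g). Per kilobase of the longest coding transcript in GENCODE M21, Cd3g had the highest level, with a mean over libraries of 1612 CPM per kb. Cd3d followed with 702, Lat with 652 and Lck with 423 CPM per kb. Cd247 measured 140 CPM per kb, Zap70 100.4, Lcp2 89.4, Cd4 69.0 and Cd3e 55.3 CPM per kb. Chains of 1 receptor complex therefore differed widely in this measure, with Cd3g at the top and Cd3e at the bottom of the 9 genes. As the library kit, strand and counting method are not given, this order need not be that of transcript numbers.

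**Figure D1:**
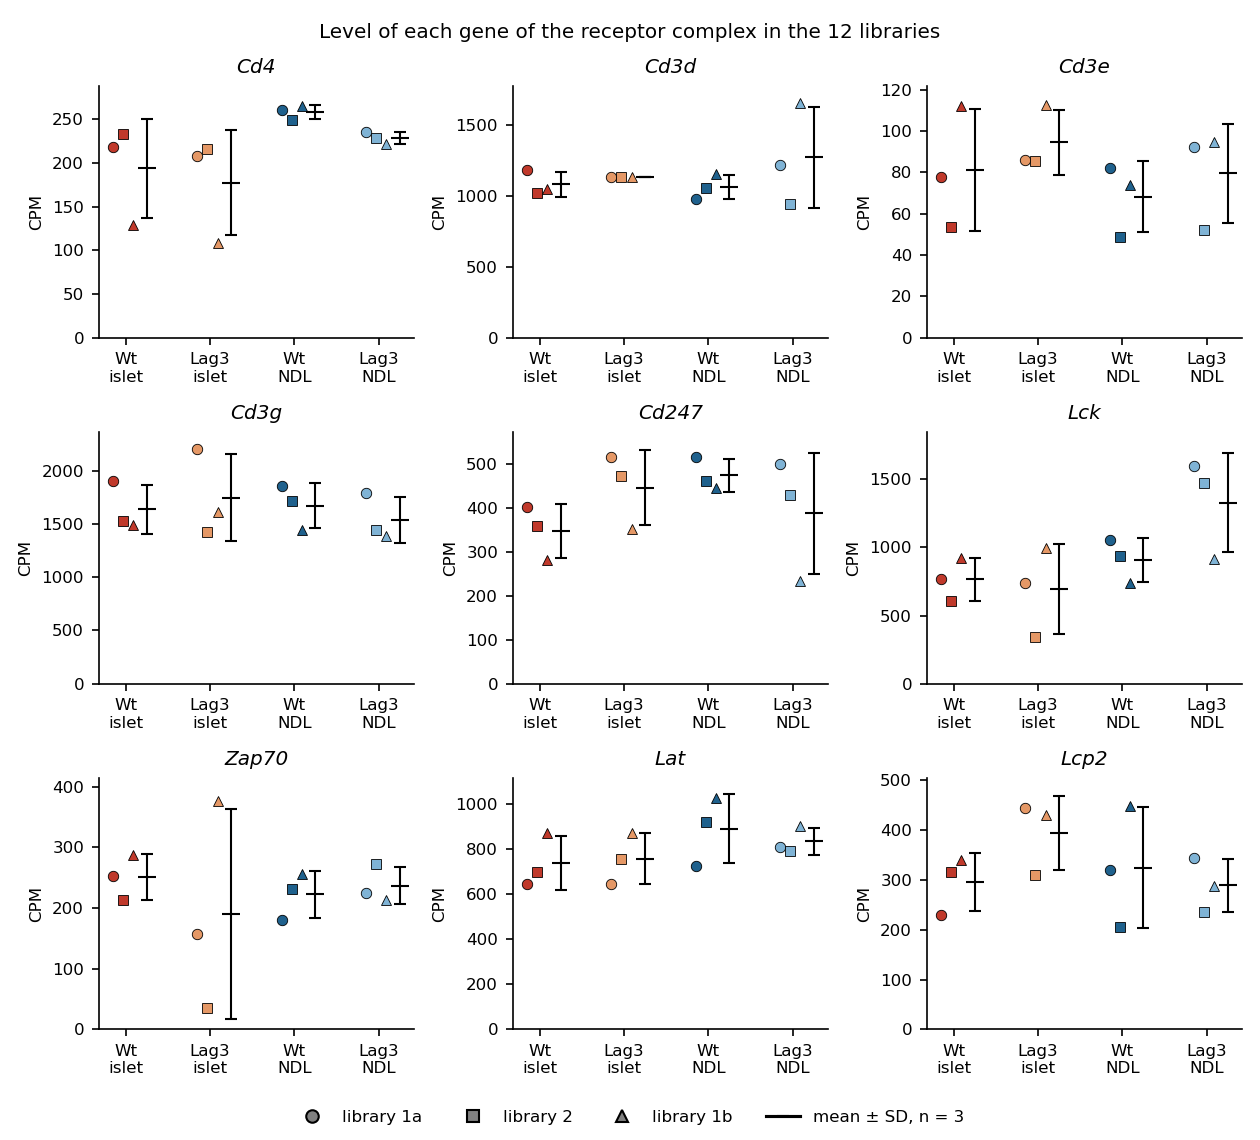
Level in CPM of each gene in each library, by group, with the group mean and SD beside the 3 libraries. Within each genotype Cd4 is lower in all islet libraries than in all NDL libraries, and library 2 of Lag3 islets has the lowest Lck and Zap70.

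The co-receptor gene Cd4 (ENSMUSG00000023274, chromosome 6, 124864692 to 124888221, minus strand, GRCm38) lies 16139 bases from Lag3, the gene altered in the mutant cells. In libraries 1a, 2 and 1b, Cd4 measured 218, 234 and 129 CPM in Wt islets and 208, 216 and 108 CPM in Lag3 islets. It measured 261, 249 and 265 CPM in Wt NDL and 235, 228 and 222 CPM in Lag3 NDL. Every islet library lay below every NDL library of its own genotype, and the 1b columns of both islet groups were far lower than their partners. In order of the group means, Wt NDL had 258 ± 8.26 CPM (SD, n = 3), Lag3 NDL 229 ± 6.64, Wt islets 194 ± 56.2 and Lag3 islets 177 ± 60.1. Between neighbours in that order only Wt NDL and Lag3 NDL did not overlap.

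On the test's scale the Cd4 difference between islet and NDL was -0.35 ± 0.44 (log2, SE) in Wt cells, with an adjusted p of 0.945 by limma across all genes. In Lag3 cells it was -0.32 ± 0.44 (adjusted p = 0.866 by limma). After the trimmed-mean scaling used in the test the libraries overlapped in both genotypes. Averaged over genotypes the difference was -0.33 ± 0.31 (adjusted p = 0.742 by limma), and 0.06 in a fit without the 1b columns. Between genotypes in NDL, where CPM values did not overlap, it was -0.26 ± 0.44 (adjusted p = 1 by limma).

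The CD3 delta and gamma chains pair with CD3 epsilon in the receptor. Their genes stand head to head on chromosome 9, Cd3g (ENSMUSG00000002033, 44969572 to 44980431) on the minus strand and Cd3d (ENSMUSG00000032094, 44981786 to 44987339) on the plus strand, with start sites 1355 bases apart. Cd3e (ENSMUSG00000032093, 44998740 to 45009627, minus strand) follows within a span of 40056 bases that holds 3 protein-coding genes. The 250 bases before each start are shown for this divergent pair because the 2 of the 9 genes with the highest mean CPM begin there. The sequences are from RefSeq on GRCm38.p6, read 5′ to 3′ on the gene's strand. Capitals mark matches, on either strand, to short motifs of factors that act at T cell genes. The letters searched were AGGAAG for ETS family factors. For RUNX factors they were TGTGGT. The E-box, bound by E proteins, was searched as CAGNTG. For GATA factors the letters were AGATAA.

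Cd3g (chr9:44980432-44980681, minus strand): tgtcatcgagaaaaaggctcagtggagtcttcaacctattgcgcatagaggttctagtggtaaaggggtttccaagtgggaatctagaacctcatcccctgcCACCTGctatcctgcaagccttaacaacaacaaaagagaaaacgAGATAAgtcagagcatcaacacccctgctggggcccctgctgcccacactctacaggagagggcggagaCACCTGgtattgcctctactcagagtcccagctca
Cd3d (chr9:44981536-44981785, plus strand): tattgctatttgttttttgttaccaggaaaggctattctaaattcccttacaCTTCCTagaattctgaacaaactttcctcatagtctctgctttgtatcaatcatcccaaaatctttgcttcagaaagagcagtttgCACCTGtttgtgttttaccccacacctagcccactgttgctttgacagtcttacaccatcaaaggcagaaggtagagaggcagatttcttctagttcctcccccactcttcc

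The Cd3g stretch held E-box and GATA letters and the Cd3d stretch ETS and E-box letters. No matches shared a base. RefSeq entries were found for 8 of the 9 genes, 11 stretches in all. Zap70 had 3 of them and Lck 2, so the stretches are not independent, and the shares below were not tested. ETS letters stood in 9 of these 11 stretches, where 29.5% of 32851 mouse promoters of the same length held them. E-box letters stood in 8 (44.8% of all), and RUNX (14%) and GATA letters (9.99%) in 2 each. A match is a description of the letters and not a site of binding.

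Of the 4 CD3 chain genes, Cd3g had the smallest ratio of the highest to the lowest library. In libraries 1a, 2 and 1b it measured 1903, 1524 and 1490 CPM in Wt islets and 2208, 1427 and 1608 CPM in Lag3 islets. It measured 1855, 1715 and 1441 CPM in Wt NDL and 1788, 1440 and 1383 CPM in Lag3 NDL. All groups overlapped, and that ratio was 1.60. The averaged tissue difference was 0.18 ± 0.22 (log2, SE) with a 95% interval of -0.28 to 0.64.

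Cd3d measured 1177, 1018 and 1044 CPM in Wt islets and 1134, 1132 and 1129 CPM in Lag3 islets. In NDL it measured 979, 1056 and 1151 CPM in Wt and 1215, 945 and 1650 CPM in Lag3 libraries. Lag3 NDL held both the lowest and the highest library of the 12, and all groups overlapped. The averaged tissue difference was 0.06 ± 0.24, with a 95% interval of -0.44 to 0.56.

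Cd3e was the lowest of the 4 chains in CPM. It measured 77.9, 53.4 and 112 CPM in Wt islets, 85.8, 85.3 and 113 CPM in Lag3 islets, 82.2, 48.9 and 73.8 CPM in Wt NDL and 92.2, 52.1 and 94.5 CPM in Lag3 NDL. Library 2 was the lowest of each group, and the groups overlapped. The averaged tissue difference was 0.36 ± 0.41, and its interval of -0.49 to 1.21 includes a doubling. Exons of Cd3e share 135 bases with the antisense gene Gm48719, and without known strand such reads cannot be told apart.

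Cd247 encodes the zeta chain, which carries the most tyrosine motifs of the complex (ENSMUSG00000005763, chromosome 1, 165788681 to 165877277, plus strand). It measured 401, 360 and 281 CPM in Wt islets and 517, 461 and 445 CPM in Wt NDL, so the Wt islet libraries were all lower. In Lag3 cells it measured 515, 472 and 352 CPM in islets and 500.0, 429 and 233 CPM in NDL, and there the tissues overlapped with the higher mean in islets. The tissue difference was -0.35 ± 0.37 in Wt (adjusted p = 0.92 by limma) and 0.37 ± 0.37 in Lag3 cells (adjusted p = 0.808 by limma). The test of the difference between the genotypes gave 0.72 ± 0.52 with a 95% interval of -0.37 to 1.81 and an adjusted p of 1 by limma. Cd247 and Pou2f1, a transcription factor gene on the other strand, share 3007 exon bases. Pou2f1 was listed at 3.71 to 87.9 CPM, and its log2 level had a Pearson r of 0.80 with that of Cd247 over 12 libraries that share tissue and genotype groups. How far shared bases enter either value was not tested.

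Lck (ENSMUSG00000000409, chromosome 4, 129548344 to 129573641, minus strand) encodes the kinase that starts the signal. It measured 767, 610 and 922 CPM in Wt islets and 740, 340 and 999 CPM in Lag3 islets. In NDL it measured 1052, 935 and 736 CPM in Wt and 1600, 1471 and 914 CPM in Lag3 libraries. Libraries 1a and 2 of Lag3 NDL were the highest of the 12 and library 2 of Lag3 islets the lowest. The means were 1328 ± 365 CPM in Lag3 NDL, 908 ± 160 in Wt NDL, 766 ± 156 in Wt islets and 693 ± 332 in Lag3 islets, and each neighbouring pair overlapped.

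Of the 9 genes, Lck had the smallest p in any tissue comparison. In Lag3 cells the islet level differed from NDL by -0.92 ± 0.41 (log2, SE; 95% interval -1.76 to -0.07), and limma gave an adjusted p of 0.544. The unadjusted limma p was 0.0351. Without library 2 of Lag3 islets the value was -0.40, and without library 2 of Lag3 NDL it was -0.80. Over 17 alternative settings it ran from -1.35 to -0.40 and its sign never turned. The adjusted limma p ran from 0.202 to 0.802 and the unadjusted limma p from 0.00647 to 0.239. In Wt cells it was -0.14 ± 0.41 (adjusted p = 0.991 by limma). The averaged value was -0.53 ± 0.29, with an interval of -1.13 to 0.07, and -0.28 without library 2 of Lag3 islets. Over 23 alternative settings the averaged value ran from -0.86 to -0.28. The test of whether the genotype effect differed between tissues gave -0.78 ± 0.57, with a 95% interval of -1.98 to 0.42 and an adjusted p of 1 by limma.

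The gene has more than 1 annotated start, used in different stages of T cell life. The deposited value is 1 number for the gene and cannot separate them. Both upstream stretches in RefSeq are shown with the same marking, the first lying farther upstream.

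Lck, upstream start (chr4:129573642-129573891, minus strand): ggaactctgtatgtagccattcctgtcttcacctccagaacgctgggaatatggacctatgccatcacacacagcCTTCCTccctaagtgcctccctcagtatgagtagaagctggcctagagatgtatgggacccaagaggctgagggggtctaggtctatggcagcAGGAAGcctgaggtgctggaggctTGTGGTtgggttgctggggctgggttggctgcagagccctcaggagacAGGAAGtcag
Lck, downstream start (chr4:129558373-129558622, minus strand): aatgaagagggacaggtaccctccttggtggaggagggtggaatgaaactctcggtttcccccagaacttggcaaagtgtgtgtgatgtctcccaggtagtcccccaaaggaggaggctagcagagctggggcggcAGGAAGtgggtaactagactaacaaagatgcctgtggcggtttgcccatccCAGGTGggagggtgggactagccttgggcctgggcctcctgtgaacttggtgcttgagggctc

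The upstream stretch held ETS letters at 3 places and RUNX letters at 1. The downstream stretch held ETS and E-box letters at 1 place each.

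Zap70, the kinase that docks on the phosphorylated CD3 tails, varied most between libraries (ENSMUSG00000026117, chromosome 1, 36761798 to 36782818, plus strand). In Lag3 islets it measured 158, 35.8 and 377 CPM in libraries 1a, 2 and 1b, and these span the lowest, at 35.8, and the highest of the 12 values. The other groups were close together, at 253, 213 and 288 CPM in Wt islets, 180, 231 and 257 CPM in Wt NDL and 225, 272 and 213 CPM in Lag3 NDL. The group means ran from 251 ± 37.5 CPM in Wt islets through 237 ± 30.9 in Lag3 NDL and 223 ± 39.0 in Wt NDL to 190 ± 173 in Lag3 islets, and all neighbours overlapped.

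The largest fitted genotype difference among the 9 genes was that of Zap70 in islets, -1.03 ± 0.65 for Lag3 against Wt, with a 95% interval of -2.38 to 0.33 and an adjusted limma p of 0.947. Library 2 of Lag3 islets decided it, as the value was 0.01 without that library. Without library 1b of Lag3 islets it was -1.83. The tissue difference in Lag3 cells, -0.75 ± 0.65 (adjusted p = 0.782 by limma), became 0.24 without library 2. In plain CPM that library held 1132 for Cd3d, 1427 for Cd3g and 472 for Cd247, where the medians of 12 libraries were 1130.0, 1566 and 437. On the TMM scale of the test its Cd3g was the lowest of the 12, at 10.24 log2 units against 10.36 in the next. That place depends on the scaling. The TMM factor of this library was 1.18, which lowers its values. Its factor from medians of ratios was 0.786, which raises them.

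**Figure D2:**
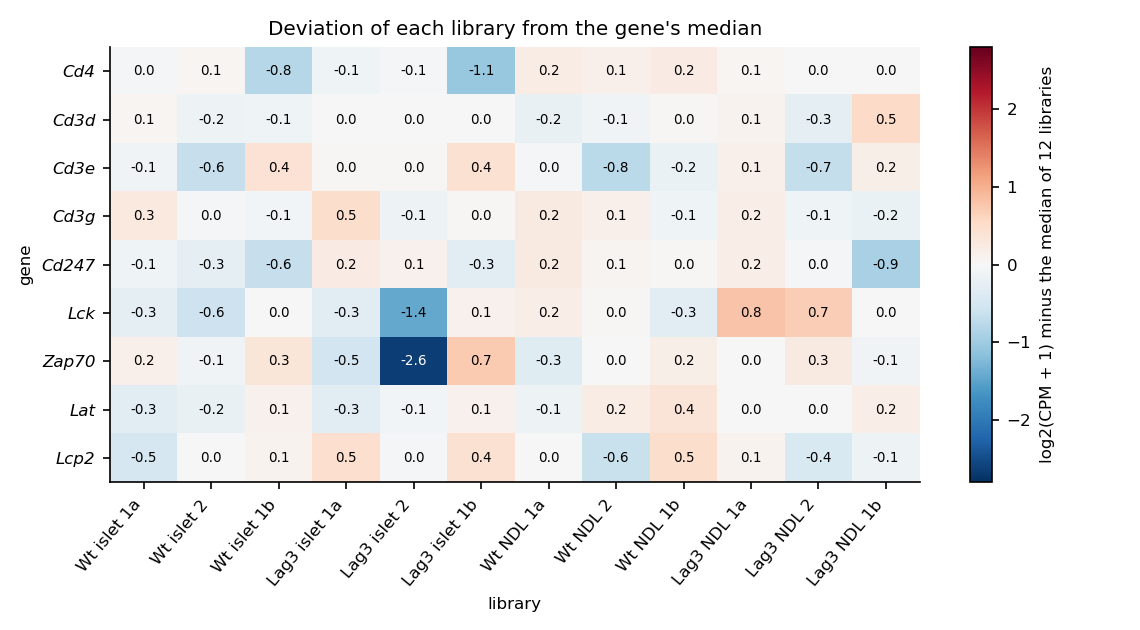
Difference of each library's log2(CPM + 1) from the gene's median over the 12 libraries, with genes in rows and libraries in columns. Library 2 of Lag3 islets is low in Lck and Zap70, while Cd3d, Cd3g and Cd247 lie near 0 there on this unscaled CPM measure, and the 1b columns of both islet groups are low in Cd4.

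The adaptors differed less. Lat (ENSMUSG00000030742, chromosome 7, 126363824 to 126369570, minus strand), the membrane scaffold that Zap70 phosphorylates, measured 644, 696 and 872 CPM in Wt islets and 645, 757 and 873 CPM in Lag3 islets. In NDL it measured 727, 921 and 1026 CPM in Wt and 810, 790 and 904 CPM in Lag3 libraries. The 2 islet groups were nearly superimposed, library 1b was the highest of every group, and all groups overlapped. The averaged tissue difference was -0.10 ± 0.24 with an interval of -0.60 to 0.41.

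Lcp2 (ENSMUSG00000002699, chromosome 11, 34046920 to 34092295, plus strand) encodes SLP-76, the cytosolic partner that binds the Lat complex. It measured 230, 316 and 340 CPM in Wt islets and 443, 309 and 430 CPM in Lag3 islets. In NDL it measured 320, 206 and 447 CPM in Wt and 343, 235 and 288 CPM in Lag3 libraries. The groups overlapped, with 2 of the Lag3 islet libraries among the highest. The averaged tissue difference was 0.29 ± 0.31 with an interval of -0.34 to 0.93. Lcp2 shares 282 exon bases with 4930469K13Rik on the other strand.

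Across the 9 genes, 0 passed an adjusted limma p of 0.05 between islets and NDL in Wt cells, where 0.184% of all tested genes did, and 0 had an unadjusted p under 0.05, against 7.53% of all genes. In Lag3 cells 0 passed, against 0.12% of all genes, and 1 (Lck) had an unadjusted p under 0.05, against 8.71% of all genes. Averaged over genotypes 0 passed, against 0.92%, with 0 under an unadjusted p of 0.05, against 11.3%. A share of 0 among 9 genes does not stand apart from these backgrounds. The median of the 9 genes' averaged tissue differences was 0.01, beside -0.04 over all tested genes, and 5 of 9 were positive, against 47.9% of all genes. Libraries did not overlap in CPM for 2 of the 9 genes in Wt cells (Cd4 and Cd247, against 13.9% of all genes) and for 1 in Lag3 cells (Cd4, against 13.6%).

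The intervals show what these libraries could resolve. For the averaged tissue difference, 6 of 9 intervals (95%) lay within a 2-fold change in either direction and 2 within 1.5-fold. Those that reached beyond were Cd3e, Lck and Zap70. For single genotypes 5 of 9 lay within 2-fold in Wt and 3 of 9 in Lag3 cells.

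Lag3 deficiency was tested in islets, in NDL and averaged over tissues. In each, 0 of 9 genes passed and 0 had an unadjusted limma p under 0.05. Over all tested genes 0% passed the adjusted threshold in each of the 3, while 5.74%, 2.72% and 3.68% of all genes were under an unadjusted p of 0.05. Differences among the 9 genes ran from -1.03 (Zap70) to 0.33 (Lcp2) in islets and from -0.45 (Cd247) to 0.44 (Lck) in NDL. Averaged over tissues they ran from -0.51 (Zap70) to 0.15 (Cd3e), with a median of -0.09 beside -0.13 for all genes, and 7 of 9 intervals lay within 2-fold. In CPM only Cd4 in NDL did not overlap between genotypes, against 7.28% of all genes. After the trimmed-mean scaling 3 genes in NDL did not overlap, Lck higher and Cd3g and Cd247 lower in Lag3 cells, against 7.53%. When the genotype effect in islets was set against that in NDL, 0 of 9 genes passed and 0% of all genes did, and 0 of 9 had an unadjusted limma p under 0.05, against 4.02% of all genes.

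**Figure D3:**
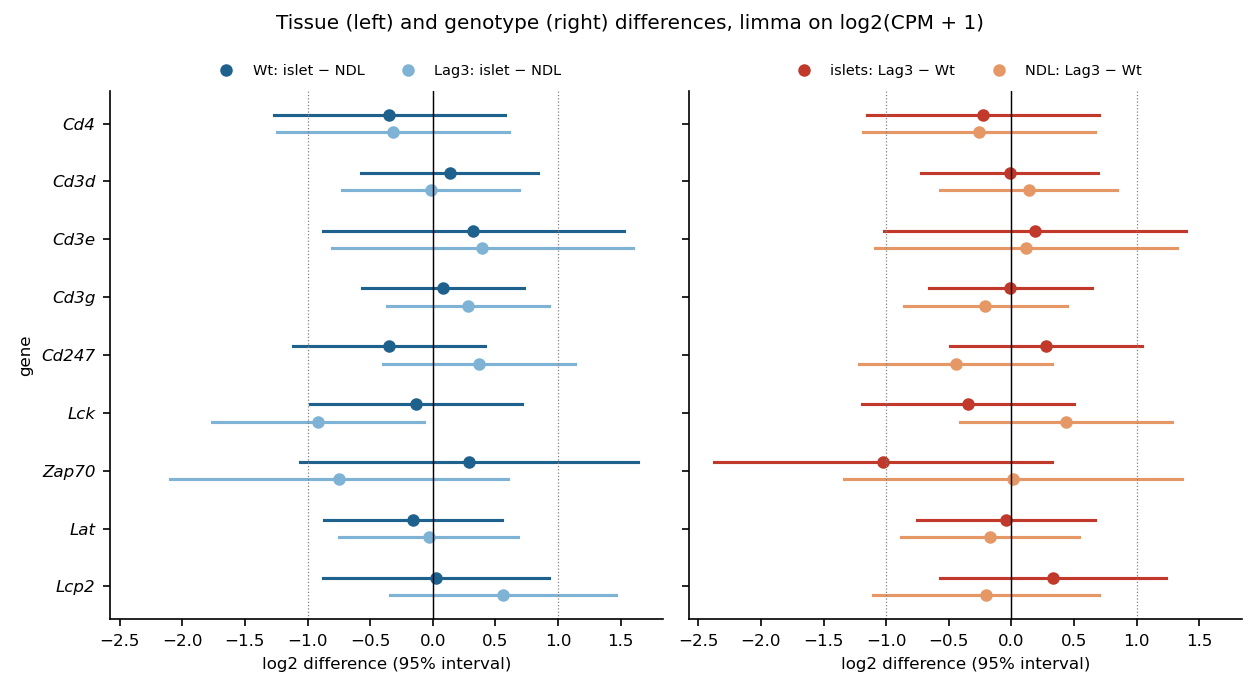
Log2 difference with its 95% interval for islet against NDL in each genotype (left) and Lag3 against Wt in each tissue (right). Dotted lines mark a 2-fold change, and of the intervals shown only that of Lck between islets and NDL in Lag3 cells excludes 0, at -1.76 to -0.07.

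Within groups the residual SD of the 9 genes ran from 0.29 (Cd247) and 0.30 (Cd3g) to 0.53 (Lck) and 0.98 (Zap70). Its median was 0.41 log2 units. The median was 1.26 over all tested genes and 0.62 over the 2074 genes at or above the level of Cd3e. All of the 9 but Cd3e lay at percentile 93.1 or above in level, so that set is not matched to their levels. For Zap70, 87.3% of those 2074 genes had a smaller spread. In Lag3 islets the SD of log2 levels was 1.01 for Lck and 1.89 for Zap70. The ratio of the highest to the lowest library was 1.59 for Lat, 1.75 for Cd3d, 4.71 for Lck and 10.5 for Zap70.

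**Figure D4:**
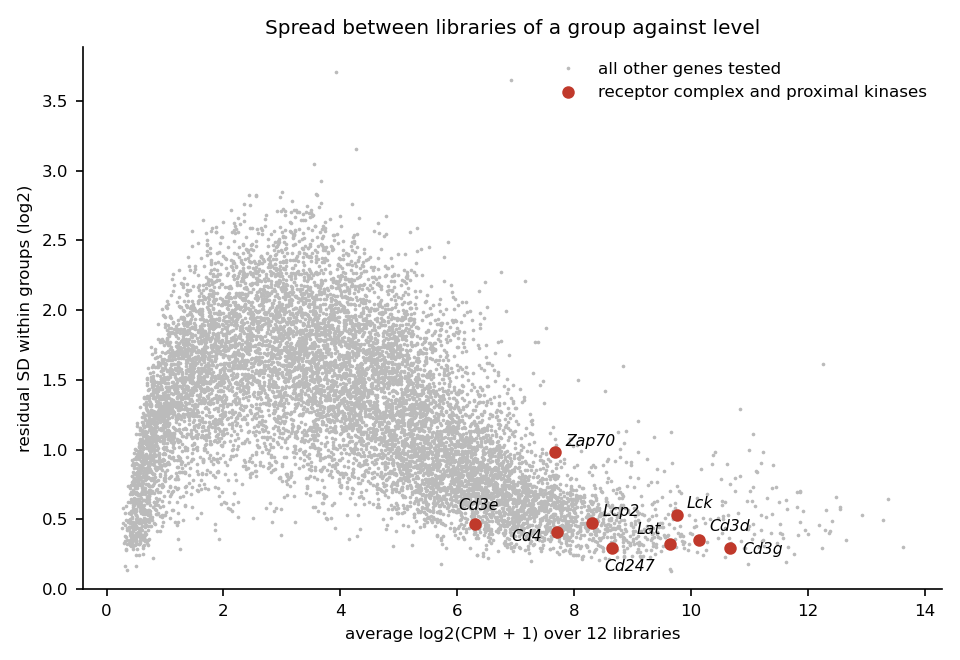
Residual SD within groups against average log2(CPM + 1) for all 10868 tested genes, with the 9 genes in red. Of the 9, 8 lie between 0.29 and 0.53 log2 units and Zap70 lies at 0.98.

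Other genes of the pathway were taken as whole lists by role. Their counts stand beside 0.819% of all tested genes higher and 0.101% lower in islets by the same adjusted threshold, averaged over genotypes. Of 14 kinases and phosphatases around Lck, 0 passed between islets and NDL averaged over genotypes, with 5 of 14 positive and a median of -0.30 beside -0.04 for all genes. Among its smallest p-values was that of Txk, a kinase that acts downstream of Lck. Txk measured 32.1 ± 25.8 CPM in islets and 81.9 ± 31.8 CPM in NDL (SD over 6 libraries, log2 difference -1.71 ± 0.65, limma adjusted p = 0.292).

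Of 18 tested adaptors and effectors of the Lat complex 1 rose in islets, against 0.819% of all tested genes, with a list median of -0.05. It was Sh2d2a, the adaptor TSAd that binds Lck, at 171 ± 51.9 and 202 ± 54.5 CPM in Wt and Lag3 islets against 49.4 ± 17.8 and 89.6 ± 49.4 CPM in Wt and Lag3 NDL. Its difference was 1.66 ± 0.39 (limma adjusted p = 0.0456), a call lost in 16 of 23 alternative settings, over which the adjusted p ran from 0.0211 to 0.16. Of 18 tested adaptors and ligases that limit TCR signals 1 rose, against the same 0.819%, with a list median of -0.15. This was Sla, whose protein SLAP promotes the turnover of the zeta chain. Sla measured 771 ± 112 and 710 ± 47.8 CPM in Wt and Lag3 islets against 454 ± 188 and 268 ± 57.5 CPM in Wt and Lag3 NDL (1.25 ± 0.26, limma adjusted p = 0.0191), and the call was lost in 7 of 23 settings (adjusted p from 0.01 to 0.123). Cd247, the gene of that chain, had an averaged RNA difference of 0.01 ± 0.26, from -0.35 ± 0.37 in Wt and 0.37 ± 0.37 in Lag3 cells. The zeta chain protein and its turnover were not measured here.

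Of 10 costimulators and adhesion molecules 1 rose, against 0.819% of all tested genes, with a list median of 0.01. Ctla4, the inhibitory receptor that Tregs use to remove costimulatory ligands, measured 2137 ± 259 and 2464 ± 406 CPM in Wt and Lag3 islets against 475 ± 40.4 and 334 ± 109 CPM in NDL. The difference was 2.66 ± 0.24 (limma adjusted p = 2.03e-06), with every islet library above every NDL library. The costimulator Icos, the next by p, differed by 1.06 ± 0.34 (limma adjusted p = 0.197). Of 14 transcription factors of the TCR gene loci 0 passed, with a median of -0.14. The TCF family gene Lef1 (-1.20 ± 0.32, limma adjusted p = 0.0812) and the chromatin organiser Satb1 (-1.03 ± 0.30, limma adjusted p = 0.128) had the smallest p-values.

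Of 10 tested genes of the immediate response to TCR stimulation 4 rose in islets, against 0.819% of all tested genes. Of the 10, 8 were positive, against 47.9% of all genes, and the median was 1.07. The AP-1 gene Fos reached 295, 368 and 444 CPM in Wt islets and 413, 570.3 and 331 CPM in Lag3 islets. In NDL it measured 3.13, 4.55 and 0.261 CPM in Wt and 5.96, 2.86 and 5.29 CPM in Lag3 libraries. All islet libraries were far above all NDL libraries, and the difference was 6.70 ± 0.53 (limma adjusted p = 3.27e-07). Its partner Junb differed by 2.54 ± 0.47 (limma adjusted p = 0.0098). The orphan nuclear receptors Nr4a2 and Nr4a1 differed by 4.92 ± 0.92 (limma adjusted p = 0.0098) and 2.28 ± 0.53 (limma adjusted p = 0.043). The call of Nr4a1 was lost in 14 of 23 settings (adjusted p from 0.0168 to 0.138) and that of Junb in 1, and in the fit without the 1b columns 2 of the 4 genes passed. The other tested genes of this list did not pass. Irf4 (1.29 ± 0.44, limma adjusted p = 0.23), Cd69 (0.84 ± 0.31, limma adjusted p = 0.287), Egr1 (0.85 ± 0.48) and Myc (0.43 ± 0.48) were positive. Egr2 (-0.31 ± 0.73) and Nfkbid (-0.25 ± 0.76) were negative. Whether TCR signals lie behind the rises was not tested. Exocrine marker sums were higher in all islet libraries than in all NDL libraries. B cell marker sums ran from 284 to 1233 CPM in islets and from 60.1 to 300.2 CPM in NDL, so their ranges overlapped. The part of such RNA in these values was not tested.

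**Figure D5:**
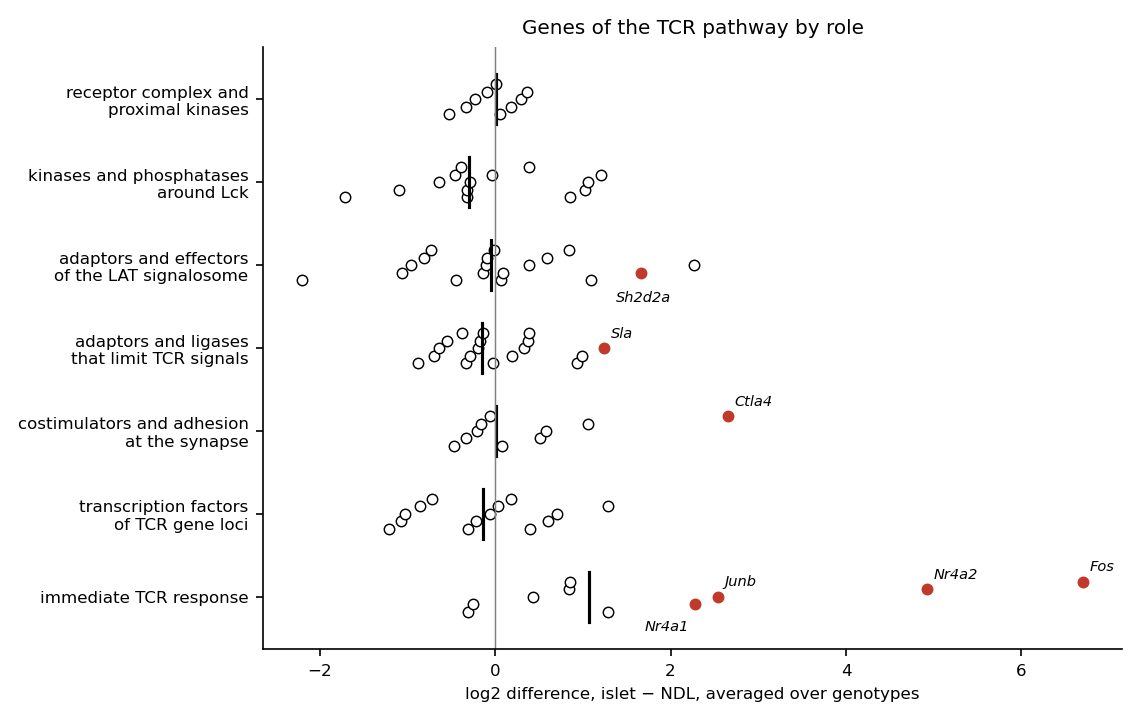
Log2 difference of islet against NDL, averaged over genotypes, for the tested genes of each role, with the list median as a bar and genes past the adjusted threshold in red with their names. The 9 receptor and kinase genes lie between -0.53 and 0.36, while Fos reaches 6.70.

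Of 8 listed TCR chain genes only Ptcra, the chain of the immature receptor, stood in the table, at 0.0652 to 1.31 CPM, and it was not tested. The alpha, beta, gamma and delta chains were not analysed here. Of 5 tested genes listed as CD8 co-receptor or NK-linked, 1 rose in islets, against 0.819% of all tested genes. It was Nkg7, a granule protein of cytotoxic cells (2.54 ± 0.49, limma adjusted p = 0.014), a call lost in 3 of 23 settings. Differences of 4 of the 5 were positive, and that of Cd8b1 was negative (-1.03 ± 0.55, limma adjusted p = 0.497). Of the 6 Treg markers, 1 (Ctla4) rose and 0 fell, where 0.819% of all tested genes rose and 0.101% fell. Differences of 4 of the 6 were positive. Those of Il2ra (-0.82 ± 0.31, limma adjusted p = 0.291) and Foxp3 (-0.51 ± 0.28, limma adjusted p = 0.518) were negative. Il2ra averaged 271 CPM in islets and 506 CPM in NDL, and Foxp3 354 and 575 CPM. Among markers of other cells, to be read against the same shares, 2 of 12 tested B cell genes (Igj, the joining chain of secreted antibodies, and Cd74, the MHC class II invariant chain), 1 of 5 myeloid genes (Cybb, of the phagocyte oxidase) and 7 of 12 exocrine genes, all of digestive enzymes or their cofactor (Ctrb1, Pnlip, Cela2a, Prss2, Clps, Cpa1 and Amy2b) rose in islets. The endocrine genes Gcg (3.09 ± 0.88) and Ins2 (2.08 ± 0.73) and the endothelial gene Pecam1 (-1.45 ± 0.84) did not pass. In the 3 comparisons of genotype and in the test of their difference between tissues, 0 genes of any of these lists passed.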

How the data were processed

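RNA described as cytoplasmic was sequenced in 12 libraries, 3 for each genotype and tissue. TopHat2, DESeq2 and the build mm10 are named in the submitters' processing notes, without versions or roles. The library kit, strand and counting method used: not given in the sources used here. The main table was deposited by the authors as a signal of whole numbers that are rescaled counts. The 12 totals differ by 0.903%, so values are not raw counts and no counting intervals are given. A second deposited table, also a signal, holds 10317 genes on a common distribution and served as an alternative.

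As count models need raw counts, log2(CPM + 1) was fitted with limma 3.58.1 (R 4.3.3, trended variance). Libraries were first scaled by TMM, a trimmed mean of log ratios (0.3 of ratios and 0.05 of levels trimmed). This scale understates fold changes of low genes. A gene needed 10 or more rescaled counts in 3 libraries, which 10868 of 21708 detected genes had, and 1 model of 4 groups left 8 residual degrees of freedom. Each of 7 comparisons was adjusted over all tested genes (Benjamini-Hochberg, threshold 0.05). A change of the genotype effect with tissue is coded as islets minus NDL. Levels and overlaps are in plain CPM. Scaling moved the median over all genes. For islet against NDL in Lag3 cells it was -0.15 with TMM, -0.03 with size factors from medians of ratios (RLE) and -0.26 in plain CPM.

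The genes and lists were chosen with earlier results of these data known. The text names the 9 genes, Lag3, and in each other list the genes past the threshold in the averaged tissue comparison, or the 2 smallest p-values. A gene that this rule names is not reported here. Other genes named were chosen after their values were seen (Ptprc, Cd8a, Cd8b1, Foxp3, Il2ra, Icos, Rn45s, Pou2f1, and the rest of the immediate response list). Gene positions are from GENCODE M21 on GRCm38. Same-numbered libraries were checked for pairing. Their deviations over all tested genes correlated at -0.09 to 0.16. Values this small, over many genes of wide scatter, do not decide whether the numbers pair libraries, and the main fit left pairing out. The method was tested on simulated data.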

Additional observations from a re-analysis of the deposited data

How the results depend on the processing

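In all alternatives run, 0 of 9 genes passed in each of the 7 comparisons by limma, with at most 2 under an unadjusted p of 0.05. The replicate block on the header numbers changed no call among the 9 genes, and with it 92 genes passed between islets and NDL in place of 100. Over all settings the averaged tissue comparison called between 40 (no filter) and 151 genes (voom weights), with 45 without the 1b columns. Wt tissue calls ran from 8 to 54 in place of 20 and Lag3 tissue calls from 7 to 32 in place of 13. Without library 1b of Lag3 islets 16 genes passed between genotypes in islets in place of 0. The immediate response count fell from 4 to 2 without the 1b columns, an alternative chosen for this list after seeing the data. Signs turned in small values. In the averaged tissue comparison, Cd3d was -0.053 in plain CPM and -0.19 in the second table, Cd3g -0.11 in the second table, and Cd247 -0.10, -0.19 and -0.0037 in plain CPM, the second table and voom. Cd4 was 0.059 without the 1b columns and Lat 0.027 relative to Ptprc and Cd2. In Lag3 cells alone Cd4 was 0.13 without the 1b columns, and between genotypes in islets 0.0066 with RLE. Zap70 between genotypes in NDL was -0.0052 with voom and -0.040 relative to Ptprc and Cd2. Leaving out 1 library gave ranges for the averaged tissue difference of -0.043 to 0.24 (Cd3d), -0.093 to 0.091 (Cd247), -0.63 to 0.25 (Zap70) and -0.20 to 0.0068 (Lat). Between genotypes in islets they were -0.47 to 0.058 (Cd4), -0.71 to 0.23 (Lck) and -1.83 to 0.011 (Zap70). Zap70 ranged from -0.91 to 0.028 between genotypes averaged over tissues, from -0.18 to 0.27 in NDL and from -1.55 to 0.24 between tissues in Lag3 cells. The cause was not tested. Depth, unknown for most libraries, limits what can be said of single values.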

Other observations

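On the TMM scale of the test, levels of the 9 genes followed one another only loosely. Over the 12 libraries, which share tissue and genotype groups, the highest Pearson correlation of log2 levels was that of Lck and Zap70, at 0.80, with a Spearman correlation of 0.17. Both are lowest in library 2 of Lag3 islets. Cd3e and Lcp2 followed with 0.70 (Spearman 0.68) and Cd3d and Lat with 0.63 (Spearman 0.58). The neighbouring genes Cd3d and Cd3g had 0.43 (Spearman 0.54), and Cd4 and Lck, whose proteins bind each other, -0.05 (Spearman -0.38).

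The genes whose log2 levels were most like the mean standardised level of the 9, among 5603 genes compared over 12 libraries, were Ints3 (Pearson 0.918), Dusp11 (0.913), Arpp19 (0.897), Tmpo (0.885) and Laptm5 (0.885). The mean standardised level was lowest in library 2 of Lag3 islets, at -1.17, and highest in library 1a of Lag3 islets, at 0.77. It is on the TMM scale and depends on the TMM factors. Library 1a of Lag3 NDL, with the largest factor (1.37), had the highest summed CPM of the 9 genes (6810) but a mean standardised level of -0.62. The smallest factor, 0.868, was that of library 1a of Lag3 islets. How far scaling shapes this likeness was not tested.

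The CPM ratio of Cd3d to Cd3g was 0.514 to 0.799 in 11 libraries and 1.19 in library 1b of Lag3 NDL. The ratio of Lck to Zap70 ran from 2.65 in library 1b to 9.48 in library 2, both of Lag3 islets. These ratios compare each library with the others and not the levels of the genes.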
